A study of Homo sapiens with 24 samples.

Results

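CUL1, SKP2, FBXW7 and CDC34 are the 4 genes of the SCF ubiquitin ligase described here, out of 189 endogenous genes on an nCounter cell cycle panel. They were chosen by name. The panel counts single RNA molecules through colour-coded probes, without amplification. RNA came from 24 libraries of 2 human cancer cell lines: HCT116, derived from a colorectal cancer, and PC3, derived from a prostate cancer. Cells received siRNA against RNAs named CARLo, which are long noncoding RNAs of a cancer-associated chromosomal region, or a control siRNA (siCTRL). HCT116 cells were treated with siCARLo-7 v2, siCARLo-5, siCARLo-4, siCARLo-3, siCARLo-1 v3 or siCTRL at 50 nM, and PC3 cells with siCARLo-1 v2&4 or siCTRL at 100 nM, with 3 libraries per group. The labels do not say what the marks v2, v3 and v2&4 stand for, give no time after transfection, and do not say that the 3 libraries of a group came from separate cultures. The p-values therefore measure only the spread between these libraries, which may be technical. The CARLo RNAs are not on the panel, so the knockdowns could not be checked in these files.

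SCF ligases attach ubiquitin chains to proteins and so mark them for degradation by the proteasome. CUL1 is the scaffold: one end holds SKP1 and an F-box protein, and the other holds RBX1, which recruits a ubiquitin-conjugating enzyme such as CDC34. The F-box protein chooses the substrate. SKP2 is the F-box protein for the CDK inhibitor p27 (CDKN1B) and promotes entry into S phase, whereas FBXW7 is the F-box protein for cyclin E, MYC and JUN and acts as a tumour suppressor. All 4 genes were above the background of the negative probes in all 24 libraries, with 40 to 1758 deposited counts or scaled values against backgrounds of 4.64 to 16.1.

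Levels are given as normalized counts per 100000 panel counts after TMM scaling, separately for the HCT116 and the PC3 libraries. Changes are log2 fold changes over siCTRL of the same line with their standard error. They were called at an adjusted p under 0.05 after Benjamini-Hochberg adjustment over all genes tested, from edgeR's quasi-likelihood test for HCT116 (178 genes) and limma for PC3 (179 genes). Probes differ in efficiency, so levels are compared between groups for 1 gene and never between genes.

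The libraries with raw counts held 55893 to 236508 endogenous counts, and the 3 PC3 siCARLo-1 v2&4 libraries, whose table holds values already scaled to the positive controls, summed to 73568 to 82152. HCT116 siCARLo-1 v3 replicate 3 stood apart: its chi-square per degree of freedom against the other two libraries of its group was 52.8 and 59.1, compared with 1.21 to 4.55 for all other pairs within a group. Endogenous counts per positive control count differed between groups, at 5.96 ± 0.329 in PC3 siCARLo-1 v2&4 against 10.4 ± 0.939 in PC3 siCTRL, and at 7.54 ± 0.823 to 9.79 ± 0.422 in the siCARLo groups of HCT116 against 10.8 ± 0.998 in HCT116 siCTRL (mean ± SD, n = 3). Changes in total RNA and changes in RNA input therefore cannot be told apart, and TMM scaling removes both. CDH1, a cell adhesion gene set down as lower in PC3 for a check of the labels, was higher there, at 530 ± 27.2 normalized counts in PC3 siCTRL libraries against 119 ± 12.7 in HCT116 siCTRL libraries. CDKN1A and MDM2, set down as present in HCT116 for the same check, were at 259 ± 15.9 and 445 ± 7.43 in HCT116 siCTRL libraries. They were lower in PC3 siCTRL libraries, at 93.1 ± 6.02 and 151 ± 7.30.

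SKP2 fell in 5 of the 6 comparisons with control, and CDC34 rose in 5 of the 6. FBXW7 rose in 3 and fell in 1, and CUL1 fell in 3 by at most 1.28-fold. Of the 4 genes, 3 were called with siCARLo-1 v3, where 41% of all tested genes were called. The counts were 3 of 4 with siCARLo-3 (52.2% of all genes), 2 of 4 with siCARLo-4 (35.4%), 3 of 4 with siCARLo-5 (55.1%) and 3 of 4 with siCARLo-7 v2 (37.1%). In PC3 they were 3 of 4, where 77.1% of all genes were called. With so many genes called everywhere, the number of calls among the 4 sets them little apart, and the sizes and directions carry the description.

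**Figure D1:**
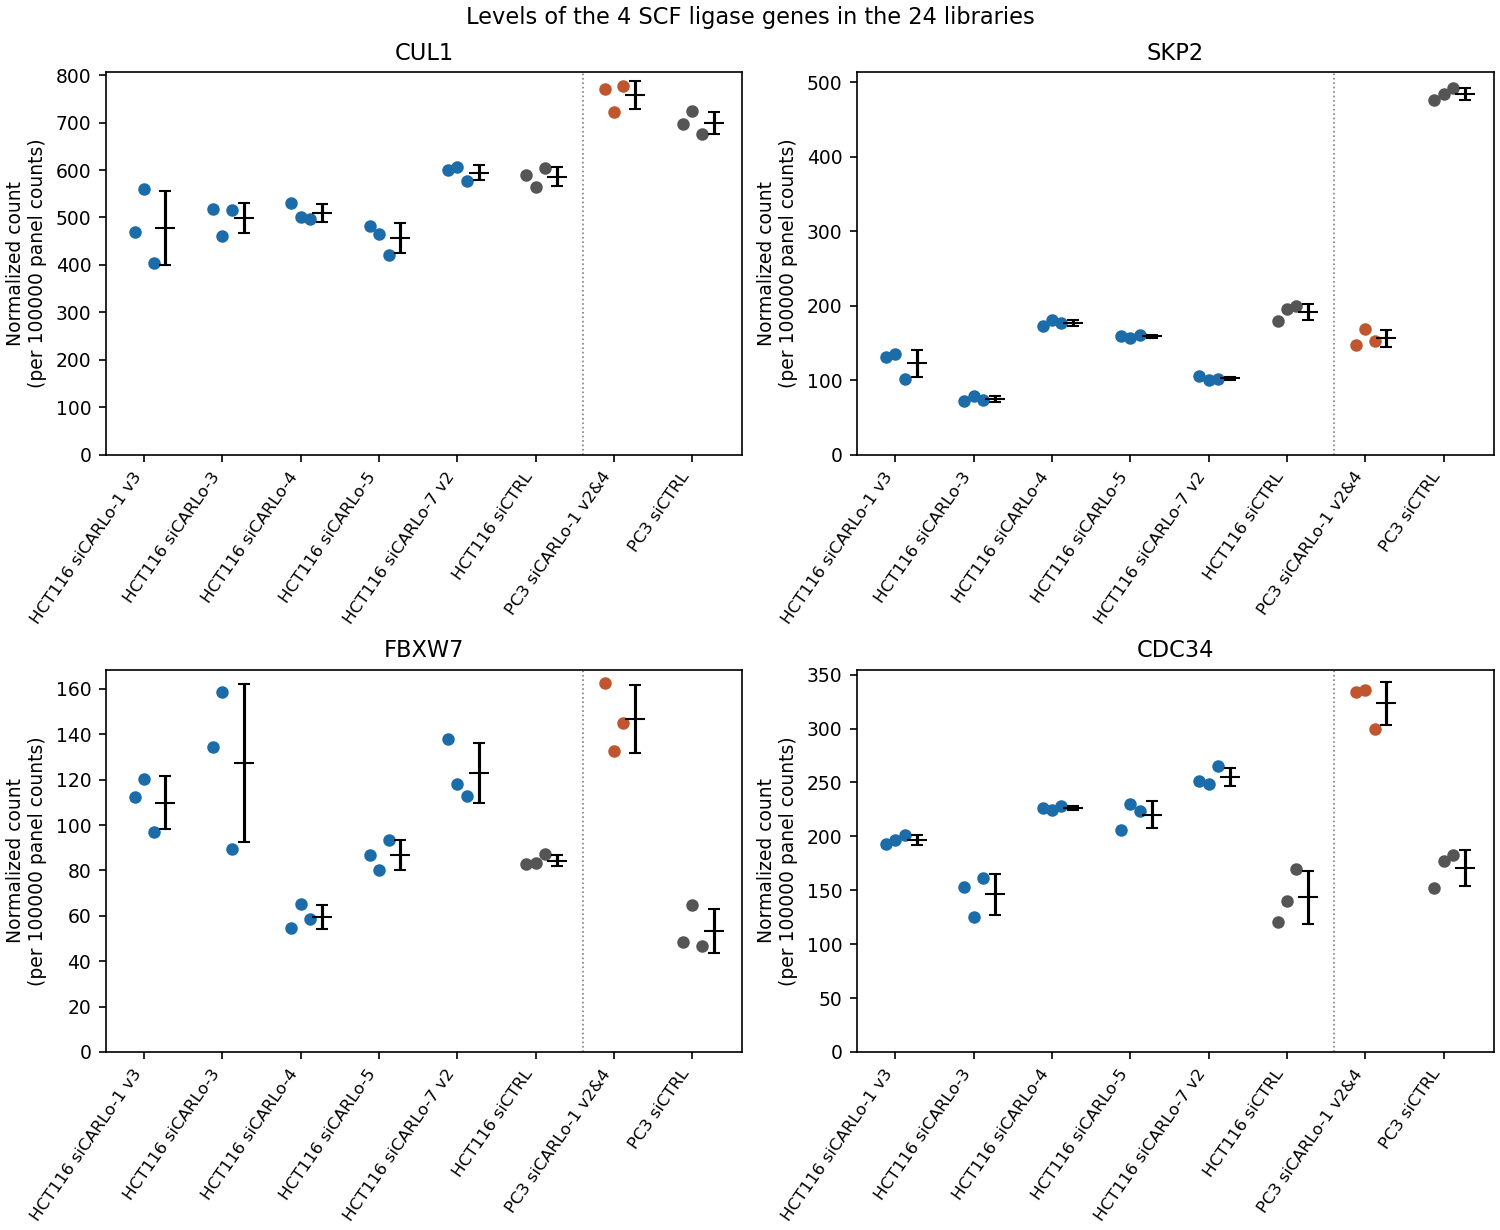
Normalized counts per 100000 panel counts (vertical axes, starting at 0) of CUL1, SKP2, FBXW7 and CDC34 in each of the 24 libraries (points), with the mean and SD of each group of 3 beside them. HCT116 groups stand left of the dotted line and PC3 groups right of it. The SKP2 points of PC3 siCARLo-1 v2&4 lie at 147 to 169, and those of PC3 siCTRL at 476 to 493.

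SKP2 was lowest in HCT116 after siCARLo-3. It had 72.1, 78.7 and 73.2 normalized counts in siCARLo-3 libraries, against 180, 195 and 199 in siCTRL libraries. The groups did not overlap, and the treated libraries lay close together. The change was -1.35 ± 0.11 on the log2 scale, or 2.54-fold lower (adjusted p = 1.94e-08, edgeR), and SKP2 ranked 5 from the lowest of the 178 genes. After siCARLo-7 v2 it had 105, 100 and 102 normalized counts, all below every control library. That was a change of -0.90 ± 0.10 (adjusted p = 7.94e-07), rank 8 from the lowest.

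After siCARLo-1 v3, SKP2 had 131, 135 and 102 normalized counts, against 180 to 199 in siCTRL libraries. The lowest of these values belongs to replicate 3, the library that stood apart. The change was -0.64 ± 0.10 (adjusted p = 3.48e-05), and without that library it was -0.52 (adjusted p = 5.25e-05). After siCARLo-5 it had 160, 157 and 160 normalized counts, a change of -0.27 ± 0.09 (adjusted p = 0.0181). This small fall was not called without siCARLo-5 replicate 2 (adjusted p = 0.0502) or without siCTRL replicate 3 (0.0593). After siCARLo-4 the values were 172, 181 and 177, which overlapped the control libraries, and the change of -0.11 ± 0.09 was not called (adjusted p = 0.32). The order of the HCT116 groups from the lowest SKP2 was siCARLo-3, siCARLo-7 v2, siCARLo-1 v3, siCARLo-5, siCARLo-4 and siCTRL. Ranges overlapped only between siCARLo-7 v2 and siCARLo-1 v3 and between siCARLo-4 and siCTRL.

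In PC3, SKP2 had 147, 169 and 152 normalized counts in siCARLo-1 v2&4 libraries, against 476, 484 and 493 in siCTRL libraries. The groups lay far apart, with little spread within either. The change was -1.63 ± 0.07, or 3.09-fold lower (adjusted p = 3.96e-10, limma on log2 of the scaled value + 1), rank 20 from the lowest of 179 genes. Scaling to the positive controls or to 6 reference genes in place of TMM kept all 5 of these SKP2 falls past the threshold.

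FBXW7 rose most in PC3. It had 163, 133 and 145 normalized counts in siCARLo-1 v2&4 libraries, against 48.5, 64.6 and 46.8 in siCTRL libraries. No treated library came near a control one. The change was 1.45 ± 0.14, or 2.74-fold higher (adjusted p = 7.79e-07, limma), rank 8 from the highest of 179 genes, and it was also called with positive control and reference gene scaling.

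In HCT116, FBXW7 was the only one of the 4 genes with calls in both directions. It had 138, 118 and 113 normalized counts after siCARLo-7 v2, against 82.8, 83.2 and 87.0 in siCTRL libraries. These groups did not overlap, and the rise was 0.55 ± 0.15 (adjusted p = 0.00787, edgeR). That call was lost with scaling to the summed positive controls and kept under the 16 other alternatives. After siCARLo-4, FBXW7 had 54.7, 65.3 and 58.5 normalized counts, below every control library. The fall was -0.49 ± 0.16 (adjusted p = 0.0203). It was not called without siCARLo-4 replicate 1 (adjusted p = 0.0619), siCARLo-4 replicate 3 (0.058) or siCTRL replicate 3 (0.0516), nor with reference gene scaling (0.0567).

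After siCARLo-3, FBXW7 had 134, 158 and 89.6 normalized counts, the widest spread of any group, with replicate 3 close to the control libraries. The rise was 0.63 ± 0.16 (adjusted p = 0.0031). It depended on replicate 2 (0.42, adjusted p = 0.0515 without it) and on the scaling, with -0.02 and an adjusted p of 0.951 under positive control scaling. With siCARLo-1 v3 the values were 112, 120 and 97.0, all above the control libraries, and the change of 0.38 ± 0.15 was not called (adjusted p = 0.0545). Without replicate 3 of that group it was 0.46 (adjusted p = 0.0255). With siCARLo-5 the values were 86.9, 80.3 and 93.5, which overlapped the controls (0.05 ± 0.15, adjusted p = 0.814).

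The largest change of CUL1 over siCTRL was smaller than that of each other SCF gene, though CUL1 did not change least in every comparison. CUL1 had 469, 559 and 405 normalized counts after siCARLo-1 v3, against 589, 565 and 604 in siCTRL libraries. The treated values spread widely, with the lowest in the library that stood apart. The change of -0.30 ± 0.09 (adjusted p = 0.0123, edgeR) was -0.20 without it and was then not called (adjusted p = 0.0551). The call was also lost with reference gene scaling, the geometric mean of the positive controls and a fit of only 2 groups. After siCARLo-5, CUL1 had 482, 465 and 422 normalized counts, all below the controls. This was its largest change in HCT116, at -0.36 ± 0.09 (adjusted p = 0.00252), and it stayed called without any 1 library.

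After siCARLo-3, CUL1 had 518, 462 and 516 normalized counts and a change of -0.24 ± 0.09 (adjusted p = 0.043). That call was lost without siCARLo-3 replicate 1, 2 or 3 (adjusted p = 0.0545, 0.178 and 0.0543) and without siCTRL replicate 1 or 3 (0.0896 and 0.105). After siCARLo-4 it had 531, 501 and 496 normalized counts, all below the controls, with no call (-0.20 ± 0.09, adjusted p = 0.0856). After siCARLo-7 v2 it had 601, 607 and 576 normalized counts and overlapped the controls (0.02 ± 0.09, adjusted p = 0.845). In PC3 it had 771, 723 and 777 normalized counts after siCARLo-1 v2&4, against 697, 724 and 676 in siCTRL libraries. The groups overlapped, and the change of 0.12 ± 0.05 was not called (adjusted p = 0.0523). Its direction in PC3 depended on the scaling, at -0.75 (adjusted p = 4.33e-12) relative to the positive controls and 0.36 (adjusted p = 8.15e-06) relative to the 6 reference genes.

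CDC34, the conjugating enzyme, was highest in HCT116 after siCARLo-7 v2. It had 251, 249 and 265 normalized counts in siCARLo-7 v2 libraries, against 121, 140 and 170 in siCTRL libraries. In HCT116 the control libraries spread more than any treated group, but none came near the treated ones. The rise was 0.84 ± 0.10, or 1.79-fold (adjusted p = 4.02e-06, edgeR), rank 10 from the highest of 178 genes. After siCARLo-4 the values were 226, 225 and 228, the tightest of the groups, with a rise of 0.67 ± 0.10 (adjusted p = 9.12e-05), also rank 10.

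After siCARLo-5, CDC34 had 206, 230 and 224 normalized counts and a rise of 0.63 ± 0.10 (adjusted p = 7.25e-05). After siCARLo-1 v3 it had 193, 197 and 201 normalized counts and a rise of 0.47 ± 0.11 (adjusted p = 0.00174), which was 0.46 without replicate 3 (adjusted p = 0.0037). Neither group overlapped the control libraries. After siCARLo-3 the values were 153, 125 and 161, inside the range of the controls (0.02 ± 0.12, adjusted p = 0.873). Positive control scaling moved that change to -0.60 (adjusted p = 0.00807).

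In PC3, CDC34 had 334, 336 and 300.0 normalized counts after siCARLo-1 v2&4, against 152, 177 and 183 in siCTRL libraries. All treated libraries were above all controls, with a rise of 0.92 ± 0.08, or 1.89-fold (adjusted p = 5.99e-07, limma). Positive control scaling gave 0.06 (adjusted p = 0.66) there, 0.27 (0.281) with siCARLo-1 v3 and 0.20 (0.359) with siCARLo-5, so these rises are relative to the other panel genes. The rises with siCARLo-4 and siCARLo-7 v2 were called under both positive control and reference gene scaling, at 0.47 and 0.75 with the sum of the positive controls. With their geometric mean the siCARLo-4 rise was 0.49 and not called (adjusted p = 0.0633).

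**Figure D2:**
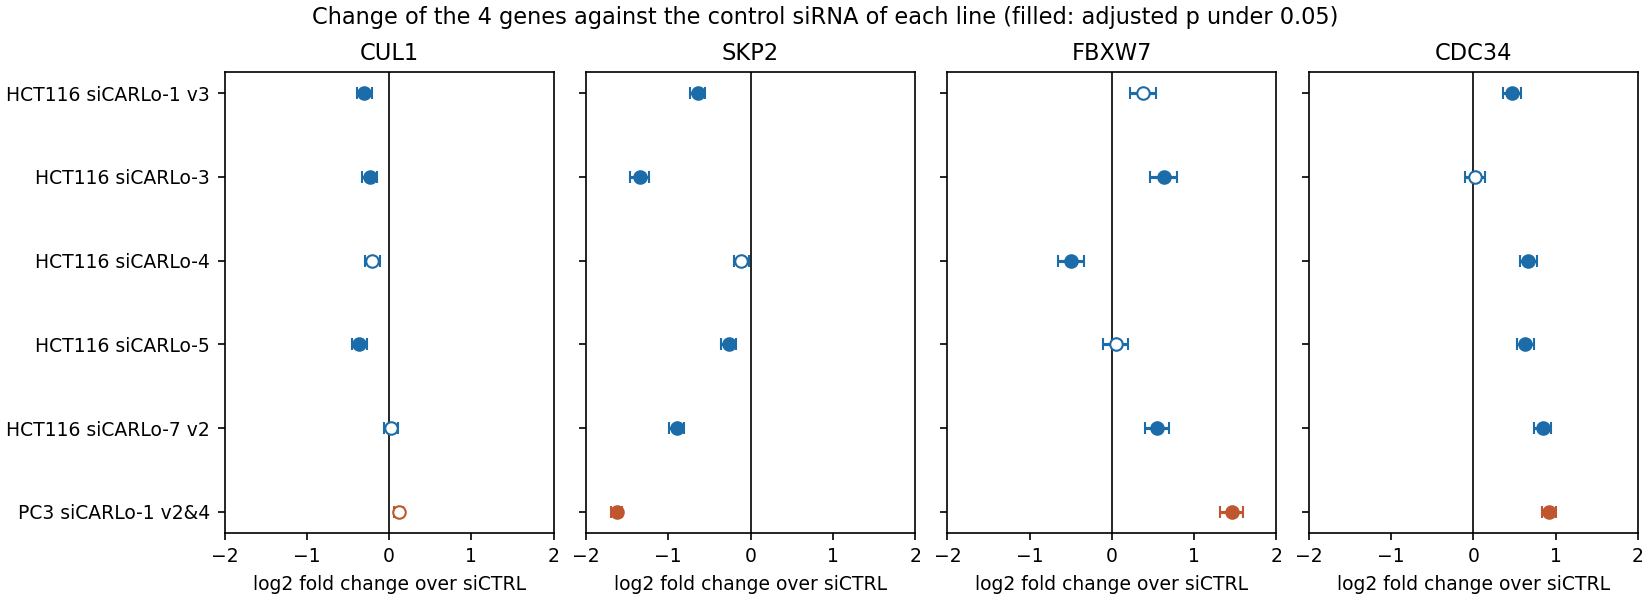
Log2 fold change over siCTRL of the same line (horizontal axes) with its standard error (bars) for the 4 genes in the 6 comparisons (rows). Filled points have an adjusted p under 0.05. SKP2 points lie at or below -0.11 in all 6 rows and CDC34 points at or above 0.02.

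Because SKP2 and CDC34 moved in opposite directions, the 250 bases upstream of each transcription start are shown (RefSeq, GRCh38.p14). SKP2 lies on the plus strand at chr5:36151861-36152110 and CDC34 on the plus strand at chr19:531510-531759. Capitals mark matches on either strand to GGGCGG, the GC box.
SKP2: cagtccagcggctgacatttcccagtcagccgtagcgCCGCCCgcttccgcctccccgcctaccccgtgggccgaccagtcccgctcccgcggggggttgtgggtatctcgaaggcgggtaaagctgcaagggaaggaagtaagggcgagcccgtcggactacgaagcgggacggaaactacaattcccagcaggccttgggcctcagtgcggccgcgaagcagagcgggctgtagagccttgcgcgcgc
CDC34: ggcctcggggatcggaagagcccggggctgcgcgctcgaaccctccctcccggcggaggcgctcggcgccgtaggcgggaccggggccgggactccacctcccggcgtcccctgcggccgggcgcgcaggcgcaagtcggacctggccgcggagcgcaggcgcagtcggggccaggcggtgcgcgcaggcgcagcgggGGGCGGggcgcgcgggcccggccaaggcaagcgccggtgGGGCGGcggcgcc
SKP2 held 1 such match and CDC34 held 2, and 42.6% of the 35116 promoter windows of this length held at least 1. Neither window held GGCGGGAA (an E2F core, in 2.72% of windows), CCAAT (32.0%), CACGTG (an E box, 6.34%) or TTTGAA (a CHR element, 13.3%) on either strand. None of these motifs overlaps another in the windows shown. RefSeq listed 5 starts for CUL1 and 4 for FBXW7, so no single window stands for either gene.

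Ratios of 2 genes within a library do not depend on its scaling, so they were computed from the deposited values. The pairs were chosen after the values were seen and carry no test. CDC34 over SKP2 was above all control libraries in every siCARLo group. It was 2.39 to 2.61 after siCARLo-7 v2, 1.59 to 2.20 after siCARLo-3, 1.45 to 1.98 after siCARLo-1 v3, 1.29 to 1.47 after siCARLo-5 and 1.25 to 1.31 after siCARLo-4, against 0.671 to 0.852 in HCT116 siCTRL. In PC3 it was 1.97 to 2.26 after siCARLo-1 v2&4, against 0.319 to 0.372 in siCTRL. The unequal change of CDC34 and SKP2 was thus present in all 6 comparisons, also with siCARLo-3 and siCARLo-4, where only one of the pair was called. FBXW7 over SKP2 and FBXW7 over CUL1 also lay apart from the controls in all 6, above them except with siCARLo-4. Such separation is therefore not particular to CDC34 and SKP2.

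SKP2 over CUL1, the F-box gene relative to its scaffold, was below all controls after siCARLo-3 (0.139 to 0.170), siCARLo-7 v2 (0.165 to 0.176) and siCARLo-1 v3 (0.242 to 0.280), against 0.305 to 0.346 in HCT116 siCTRL. After siCARLo-5 (0.332 to 0.380) and siCARLo-4 (0.324 to 0.361) it overlapped the controls. In PC3 it was 0.191 to 0.234 after siCARLo-1 v2&4, against 0.669 to 0.728 in siCTRL. FBXW7 over SKP2, the ratio of the F-box genes, was 0.783 to 1.10 in PC3 after siCARLo-1 v2&4, against 0.0950 to 0.134 in siCTRL. In HCT116 it was 1.23 to 2.01 after siCARLo-3, 1.11 to 1.31 after siCARLo-7 v2, 0.858 to 0.953 after siCARLo-1 v3 and 0.512 to 0.583 after siCARLo-5, against 0.426 to 0.461 in siCTRL. With siCARLo-4 alone it lay below the controls, at 0.317 to 0.362. Each ratio shows unequal change of its 2 genes, not which of them changed.

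**Figure D3:**
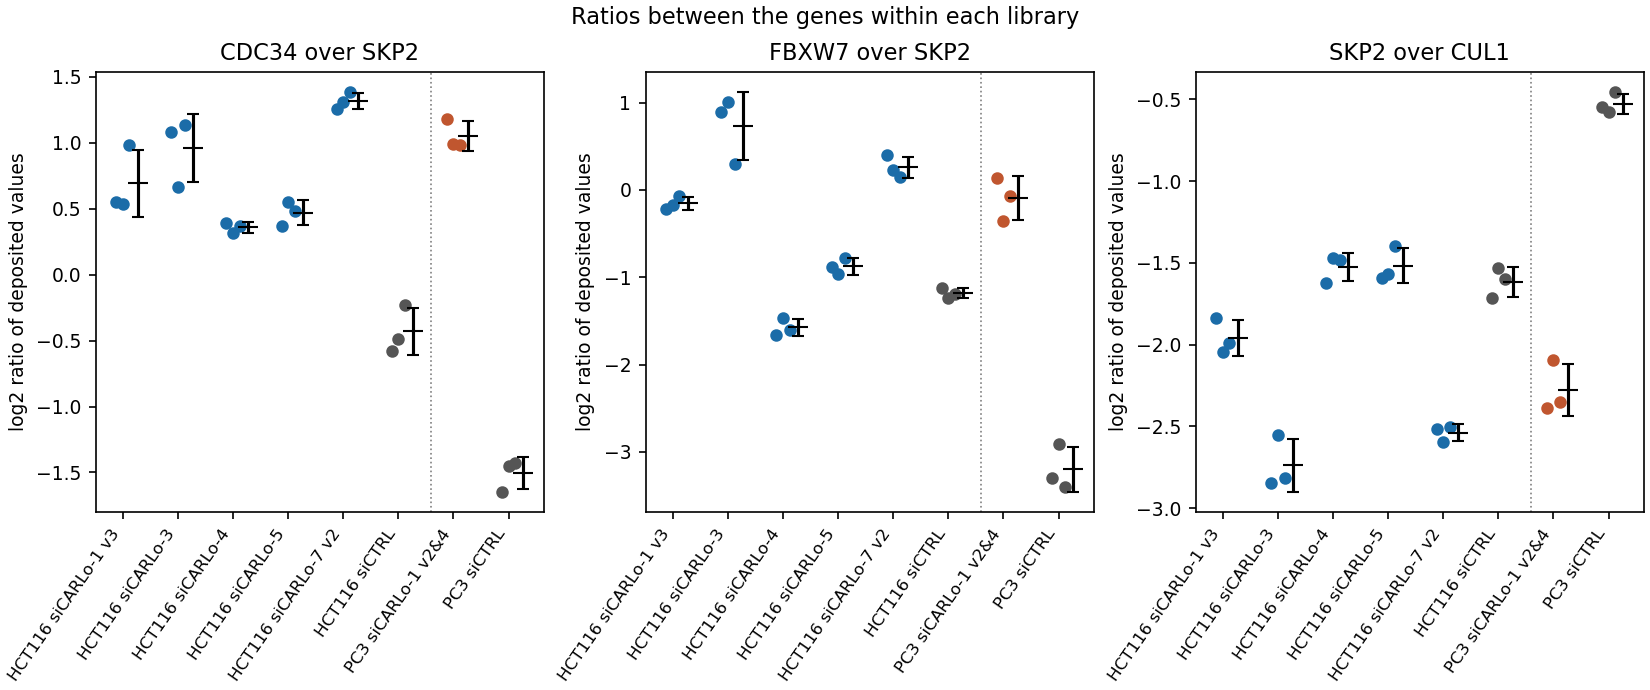
Log2 ratio of deposited values within each library (vertical axes) for CDC34 over SKP2, FBXW7 over SKP2 and SKP2 over CUL1, with the mean and SD of each group of 3 beside the points. In the left panel every siCARLo library lies above the control libraries of its line, to the left of the dotted line for HCT116 and to the right for PC3.

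No siCARLo group shares its positive control level with its control group in the deposited series-wide table, so siRNA and table batch cannot be told apart in the comparisons above. Contrasts between siCARLo groups that share that level, with siCARLo-4, siCARLo-3 and siCARLo-1 v3 in one set and siCARLo-7 v2 and siCARLo-5 in another, use no control library. All 4 genes differed among the 5 siCARLo groups by edgeR's F test, as did 86.5% of all genes (adjusted p = 7.88e-08 for SKP2, 1.88e-05 for FBXW7, 4.91e-05 for CDC34 and 0.00724 for CUL1). That test spans both sets, so siRNA and table batch cannot be told apart in it. SKP2 was lower after siCARLo-3 than after siCARLo-1 v3 by -0.70 ± 0.12 (adjusted p = 7.31e-05), and this was -0.82 without siCARLo-1 v3 replicate 3. CDC34 was lower in the same contrast, at -0.44 ± 0.11 (adjusted p = 0.00368). These were the 2 genes of 4 called there, with 55.1% of all genes. FBXW7, at 0.25 (adjusted p = 0.189), ranged from 0.04 to 0.43 when 1 library was left out and was called without siCARLo-3 replicate 3 (0.43, adjusted p = 0.0147).

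Against siCARLo-3, siCARLo-4 had higher SKP2 (1.23 ± 0.11, adjusted p = 3.62e-08), lower FBXW7 (-1.12 ± 0.16, 1.44e-05) and higher CDC34 (0.65 ± 0.11, 9.72e-05), or 3 of 4, with 43.8% of all genes called. The opposite order of both F-box genes was thus measured between these groups directly. Against siCARLo-1 v3, siCARLo-4 had higher SKP2 (0.53 ± 0.09, adjusted p = 0.000143) and lower FBXW7 (-0.87 ± 0.15, 0.000141), or 2 of 4, with 45.5% called. Against siCARLo-5, siCARLo-7 v2 had lower SKP2 (-0.63 ± 0.10, adjusted p = 3.99e-05), higher FBXW7 (0.50 ± 0.14, 0.00755) and higher CUL1 (0.38 ± 0.09, 0.00178), or 3 of 4, with 52.2% called. Relative to the positive controls the last SKP2 difference was -0.29, with an adjusted p of 0.156, and with their geometric mean the SKP2 difference of siCARLo-4 from siCARLo-1 v3 was 0.42 (adjusted p = 0.0825).

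Under control siRNA the lines differed in 3 of the 4 genes, as in 69% of all 184 genes of the fit of both lines (limma). SKP2 averaged 478 ± 13.8 normalized counts in PC3 siCTRL and 194 ± 10.4 in HCT116 siCTRL, a difference of 1.29 ± 0.09 (adjusted p = 2.24e-11). FBXW7 averaged 52.5 ± 9.23 in PC3 siCTRL and 85.7 ± 2.37 in HCT116 siCTRL (-0.71 ± 0.16, adjusted p = 0.000576). PC3 siCTRL thus had more SKP2 and less FBXW7 RNA than HCT116 siCTRL, and after siCARLo-1 v2&4 SKP2 was at 144 ± 9.43 and FBXW7 at 136 ± 15.8 in PC3 on this scale. CUL1 was higher in PC3 by 0.21 ± 0.08 (adjusted p = 0.0298), a call lost when PC3 siCTRL replicate 1 or 2 or HCT116 siCTRL replicate 1 or 2 was left out (adjusted p = 0.053, 0.0839, 0.0542 and 0.2). CDC34 was not called (0.22 ± 0.11, adjusted p = 0.077), though edgeR on the 6 control libraries called it (0.25, adjusted p = 0.0157). Leaving out 1 library gave 0.10 to 0.35, with calls without PC3 siCTRL replicate 1 (0.31, adjusted p = 0.03) and without HCT116 siCTRL replicate 3 (0.35, 0.00816). The 2 control groups were deposited at different positive control levels, so line and table batch cannot be told apart. The change with siCARLo-1 v3 in HCT116 differed from that with siCARLo-1 v2&4 in PC3 for SKP2, FBXW7 and CUL1, or 3 of 4, as for 54.9% of all genes. Relative to the positive controls the FBXW7 difference was not called and the CUL1 difference had the opposite sign. The lines received different siRNA marks and doses, and the sizes of these differences are given in the closing section.

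Of the other SCF and cullin genes listed, 4 were on the panel: SKP1, the adaptor between CUL1 and the F-box protein; RBX1, the RING subunit; NEDD8, the modifier that activates cullins; and UBE2M, which conjugates NEDD8. For these and the genes below, changes are relative to TMM scaling. Of 16 list genes called higher in PC3, 13 were below 0 relative to the summed positive controls and only CDKN1A and NFKBIA were still called higher. RBX1 had 1033 to 1077 normalized counts after siCARLo-3 and 983 to 1032 after siCARLo-5, against 713 to 805 in HCT116 siCTRL. It rose by 0.47 (adjusted p = 4.8e-06) and 0.41 (2.3e-05), and by 0.42 in PC3 (8.5e-06), and all 3 were below 0 relative to the summed positive controls. NEDD8 rose after siCARLo-3 (0.31, adjusted p = 7.9e-05) and in PC3 (0.32, 2.1e-05), both reversed relative to the positive controls, and fell after siCARLo-7 v2 (-0.31, 0.0001) and siCARLo-1 v3 (-0.13, 0.047). The last of these was at 0 with the reference genes. SKP1 gave few counts, 20 to 86 per HCT116 library, and was called only in PC3 (0.79, adjusted p = 8.9e-05), reversed with the positive controls. UBE2M was near background and was called in none of the 6 comparisons with control. The median change of these 4 genes was -0.05 after siCARLo-7 v2, 0.26 after siCARLo-5, 0.25 after siCARLo-4, 0.51 after siCARLo-3, 0.23 after siCARLo-1 v3 and 0.37 in PC3, against -0.0036 to 0.08 over all tested genes. Relative to the summed positive controls this median was -0.11 after siCARLo-7 v2, -0.14 after siCARLo-5 and 0.08 after siCARLo-4. On the same scaling it was -0.11 after siCARLo-3, 0.05 after siCARLo-1 v3 and -0.50 in PC3. In the siCARLo-3 median SKP1 and UBE2M count although neither was called.

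Genes whose proteins are SKP2 substrates were measured for their RNA only. Of 9 on the panel, 4 rose and 1 fell with siCARLo-1 v3 (41% of all genes called), 2 rose and 4 fell with siCARLo-3 (52.2%), 3 rose and 3 fell with siCARLo-4 (35.4%), 3 rose and 4 fell with siCARLo-5 (55.1%), and 3 rose and none fell with siCARLo-7 v2 (37.1%). In PC3, 6 rose and 2 fell, where 77.1% of all genes were called, and relative to the summed positive controls 1 was called higher and 5 lower. The median change of the 9 was 0.20 with siCARLo-7 v2, 0.05 with siCARLo-5, 0.09 with siCARLo-4, -0.24 with siCARLo-3, 0.24 with siCARLo-1 v3 and 0.53 in PC3, and the last of these was -0.32 relative to the positive controls. CDKN1A, encoding the CDK inhibitor p21, rose in all 6 by 0.58 to 2.60. CCND1, encoding cyclin D1, rose in all 6 by 0.69 to 1.26, and its PC3 value was -0.08 relative to the positive controls. CDKN1B, encoding p27, was called lower with siCARLo-5 (-0.40, adjusted p = 0.028) and higher in PC3 (0.53, 0.008), where the positive controls gave -0.32.

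Among the other SKP2 substrates, E2F1, an S-phase transcription factor, fell with siCARLo-3 (-1.78, adjusted p = 1.3e-06) and in PC3 (-1.41, 4.1e-08), the comparisons in which SKP2 changed most. Where SKP2 also fell, E2F1 was not called with siCARLo-7 v2 (0.20, adjusted p = 0.27), siCARLo-5 (0.05, 0.80) or siCARLo-1 v3 (0.22, 0.25). Without siCARLo-1 v3 replicate 3 it was called higher with that siRNA (0.38, adjusted p = 0.028). With siCARLo-4 it rose (0.48, adjusted p = 0.014), at 0.31 and not called relative to the positive controls (0.23). ORC1, an origin-binding subunit, fell in 5 of 6, from -0.42 to -1.07, and was not called with siCARLo-7 v2 (-0.26, adjusted p = 0.11). The siCARLo-4 fall of ORC1 was not called relative to the reference genes (adjusted p = 0.079). RBL2, a pocket protein, fell with siCARLo-3 (-1.17, adjusted p = 7.9e-05), siCARLo-4 (-0.43, 0.036) and siCARLo-5 (-0.48, 0.015).

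Of the FBXW7 substrates, 4 were on the panel, of which CCNE1 and MYC are also in the SKP2 list. All 4 rose with siCARLo-1 v3, where 41% of all genes were called, and also without replicate 3, the library that stood apart. Relative to the summed positive controls all 4 stayed above 0 there but only MYC was called, with CCNE1 at 0.38 (adjusted p = 0.11), CCNE2 at 0.49 (0.057) and JUN at 0.68 (0.056). With siCARLo-3, 1 rose and 1 fell (52.2% of all genes called), with siCARLo-4, 1 rose and 2 fell (35.4%), with siCARLo-5, 2 rose and 2 fell (55.1%), with siCARLo-7 v2, 2 rose and none fell (37.1%), and in PC3, 3 rose and 1 fell (77.1%). The median change of the 4 was 0.22 with siCARLo-7 v2, -0.12 with siCARLo-5, -0.13 with siCARLo-4, -0.22 with siCARLo-3, 0.71 with siCARLo-1 v3 and 0.62 in PC3, and the last of these was -0.24 relative to the positive controls. JUN, a transcription factor subunit, rose in all 6 by 0.61 to 1.75, with -0.03 in PC3 relative to the positive controls. Its siCARLo-5 rise was 0.18 (adjusted p = 0.59) relative to them and 0.45 (0.20) relative to the reference genes. MYC, also a transcription factor, rose with siCARLo-1 v3 (0.77, adjusted p = 8.6e-09) and fell with siCARLo-4 (-0.44, 2.8e-05). It was also called higher with siCARLo-5 (0.21, adjusted p = 0.0046), at -0.20 relative to the positive controls, and with siCARLo-7 v2 (0.20, 0.011). The MYC rise with siCARLo-7 v2 was not called relative to the positive controls (0.14, adjusted p = 0.43) or the reference genes (0.27, 0.058). Its rise in PC3 (0.57, adjusted p = 3.4e-07) was -0.29 relative to the positive controls (0.0069). CCNE1, encoding cyclin E1, rose with siCARLo-1 v3 (0.54, adjusted p = 0.0017) and fell with siCARLo-3 (-0.38, 0.034) and siCARLo-5 (-0.45, 0.0061), and its rise in PC3 (0.67, 0.00026) was -0.18 with the positive controls. CCNE2, encoding cyclin E2, rose with siCARLo-1 v3 (0.65, adjusted p = 0.0041) and fell with siCARLo-4 (-0.52, 0.024), siCARLo-5 (-0.75, 0.0018) and in PC3 (-1.40, 1.4e-07). The siCARLo-4 fall of CCNE2 was not called relative to the reference genes (adjusted p = 0.079).

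Substrates of BTRC, another F-box protein, had 4 genes on the panel, of which WEE1 did not pass the background filter and was not tested. NFKBIA, the inhibitor of NF-kappaB, rose with siCARLo-1 v3 (0.65), siCARLo-3 (0.97), siCARLo-7 v2 (0.86) and in PC3 (1.55), with adjusted p of 3.5e-05, 2.0e-07, 9.6e-07 and 1.5e-11. The phosphatase gene CDC25B rose with siCARLo-4 (0.93, adjusted p = 1.7e-08) and siCARLo-7 v2 (0.22, 0.028), and fell with siCARLo-3 (-0.54, 3.0e-05) and in PC3 (-2.01, 5.6e-08). CDC25A, a related phosphatase gene, fell with siCARLo-7 v2 (-0.43, adjusted p = 0.028) and in PC3 (-0.55, 1.6e-05). The siCARLo-7 v2 calls of CDC25A and CDC25B were lost with the summed positive controls (adjusted p = 0.065 and 0.51). They were also lost with the reference genes (adjusted p = 0.16 and 0.12).

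The APC/C, the other large cell cycle ubiquitin ligase, had 12 subunit and activator genes on the panel. Of these 12, 1 rose and 2 fell with siCARLo-7 v2 (37.1% of all genes called), with siCARLo-4 (35.4%) and with siCARLo-1 v3 (41%). With siCARLo-5, 3 rose and 3 fell (55.1%), with siCARLo-3, 2 rose and 3 fell (52.2%), and in PC3, 5 rose and 2 fell (77.1%). Relative to the summed positive controls, none of the 12 was called higher in PC3 and 8 were called lower. ANAPC2, its cullin-like subunit, rose with every siRNA in HCT116 (0.44 to 0.80), although relative to the summed positive controls only the siCARLo-1 v3 rise was called (0.63, adjusted p = 0.0094). There the others were 0.39 with siCARLo-7 v2, 0.19 with siCARLo-5, 0.41 with siCARLo-4 and -0.16 with siCARLo-3. CDC27, a further APC/C subunit, fell with siCARLo-5 (-0.92), siCARLo-1 v3 (-0.66) and siCARLo-7 v2 (-0.56). CDC16, another subunit, fell with siCARLo-3 (-0.56), siCARLo-4 (-0.23) and siCARLo-5 (-0.33). The siCARLo-4 fall of CDC16 was not called relative to the reference genes (adjusted p = 0.15). In PC3 CDC16 rose by 0.93, with 0.06 relative to the positive controls. The subunit gene ANAPC5 fell with siCARLo-3 (-0.41) and rose in PC3 (0.82), where the positive controls gave -0.05. The activator genes differed, with CDC20 lower in PC3 (-2.14, adjusted p = 6.8e-10), and FZR1 higher with siCARLo-5 (0.51, 0.00033) and in PC3 (0.64, 0.00017), where the positive controls gave -0.22.

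The gene closest to SKP2 over the 18 HCT116 libraries was CDC23, an APC/C subunit, by the root mean square difference of centred log2 levels (0.27, against a median of 0.55 over 177 genes), followed by YWHAH (0.29) and POLR1D (0.32). CDC23 fell with siCARLo-3 (-1.69), siCARLo-7 v2 (-0.96), siCARLo-5 (-0.82) and siCARLo-1 v3 (-0.68), also with positive control and reference gene scaling. In PC3, CDC23 rose (0.78, adjusted p = 3.3e-07; -0.08 relative to the positive controls) while SKP2 fell. The closest genes over the 6 libraries there were PTTG1 (0.085), ESPL1 (0.092) and MCM3 (0.11), against a median of 0.88 over 178 genes. Closest to FBXW7 were SMAD4 (0.27), NFKBIA (0.27) and ANAPC1 (0.29) in HCT116, and NFKBIA (0.18), CREB3 (0.18) and POLR1C (0.20) in PC3. NFKBIA was the one gene named for the same SCF gene in both lines. Closest to CDC34 were ABL1 (0.21), ARF1 (0.25) and FZR1 (0.26) in HCT116, and NFKB1 (0.059), SMAD3 (0.073) and CDC16 (0.10) in PC3. Closest to CUL1 were PRIM2 (0.12), CDK7 (0.14) and CDK2 (0.15) in HCT116, and RB1 (0.034), SMAD2 (0.039) and ORC5 (0.054) in PC3. CUL1 itself varied little, and a gene that did not vary at all would score 0.17 against it in HCT116 and 0.072 in PC3. All of these libraries share the panel and the scaling, and in PC3 a small difference mostly says that 2 genes changed alike between 2 groups.

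The scaling decided several calls outside SKP2. Scaling to the summed positive controls moved the median change of all genes to -0.16 with siCARLo-1 v3, to -0.61 with siCARLo-3, -0.18 with siCARLo-4, -0.36 with siCARLo-5, -0.05 with siCARLo-7 v2 and -0.77 in PC3. With it, 10 genes were called higher and 47 lower with siCARLo-1 v3 (30 and 43 with TMM), 11 and 118 with siCARLo-3 (45 and 48), 13 and 40 with siCARLo-4 (32 and 31), 8 and 82 with siCARLo-5 (45 and 53), 23 and 25 with siCARLo-7 v2 (37 and 29), and 12 and 131 in PC3 (71 and 67). SKP2 lay below these medians, at -1.99 after siCARLo-3 and -2.50 in PC3, values that include the shift of all genes. With the 6 reference genes the median change of all genes was 0.14, -0.15, 0.0026, -0.10 and 0.09 for the HCT116 groups in the same order and 0.32 in PC3, whereas with TMM it was 0.02, 0.0034, -0.0036, 0.05 and 0.02 in HCT116 and 0.08 in PC3.

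**Figure D4:**
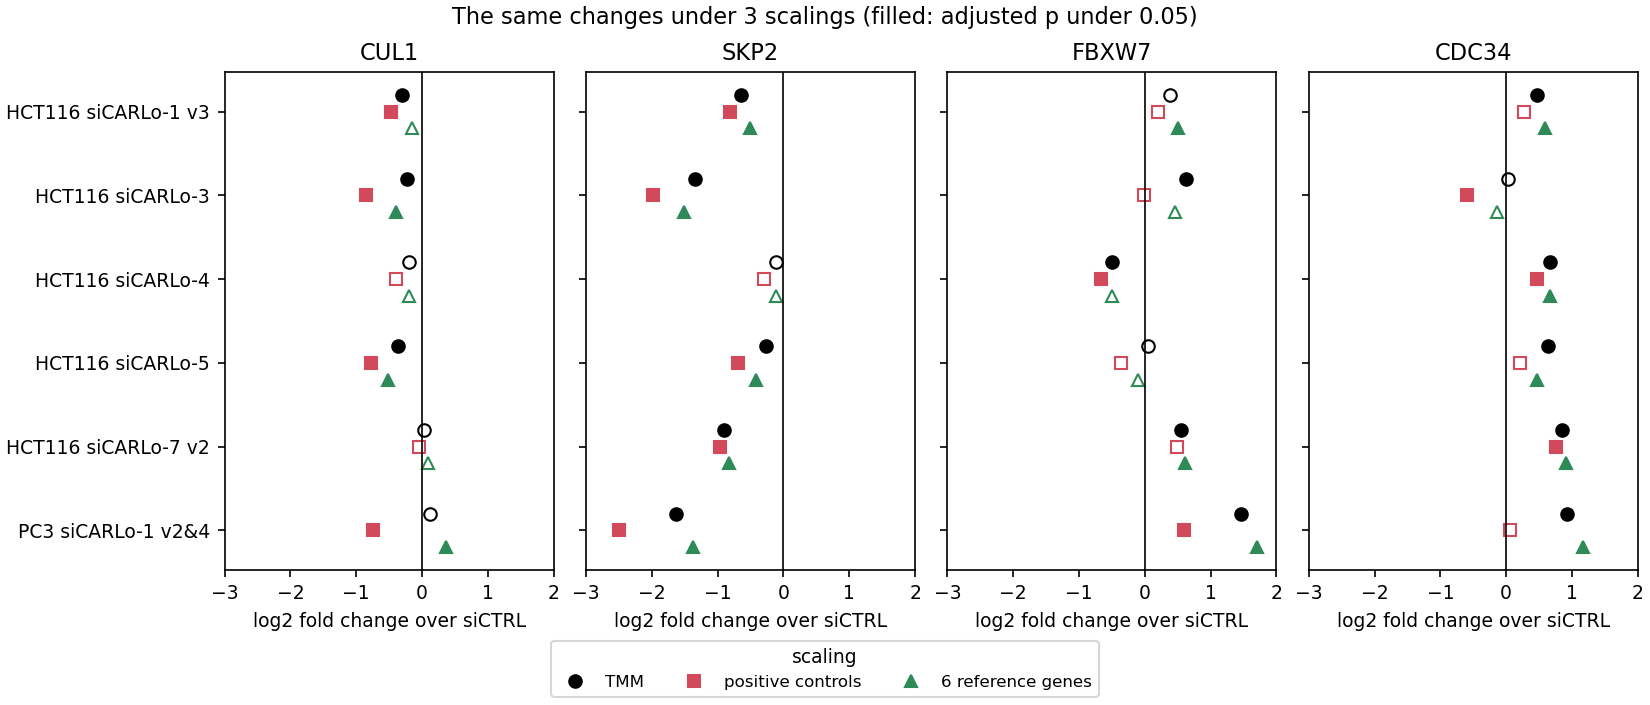
Log2 fold change over siCTRL (horizontal axes) of the 4 genes in the 6 comparisons (rows) with TMM scaling, scaling to the sum of the positive controls, and scaling to 6 reference genes. Filled symbols have an adjusted p under 0.05. SKP2 is filled under all 3 scalings in every row except siCARLo-4, and CDC34 in PC3 lies at 0.92 with TMM and at 0.06 with the positive controls.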

How the data were processed

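Molecule counts of 189 endogenous genes, 6 positive and 8 negative probes were taken from 1 deposited table per group. For 7 groups the authors deposited raw counts, as whole numbers. The deposited PC3 siCARLo-1 v2&4 table and the series-wide table hold scores already scaled to the positive controls, a reading taken from their values. The counting software is not given in the labels or headers used.

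A gene was tested if it exceeded background, the negative probes' mean + 2 SD, in at least 3 libraries of a fit. HCT116 counts (18 libraries, 1 shared spread, common CV 9.10%) went through edgeR 4.0.16 (R 4.3.3) with TMM factors of 0.927 to 1.11. PC3 and both lines together went through limma 3.58.1 on log2 of the TMM-scaled value per 100000 + 1, since not all values are counts; folds on that scale understate changes of low genes. Scripts were tested on simulated data. DESeq2 1.42.0, other scalings, filters, pseudocounts and left-out libraries were alternatives. The number of libraries and the counts per gene limit the precision.

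The 4 genes and the gene lists were chosen with earlier results of these data known. Besides the 4, the genes named are list genes that passed the test somewhere at 1.5-fold or more, 7 fixed list genes, and for each of the 4 the 3 genes nearest in pattern; UBE2M and WEE1 were named after their values were seen. Promoter windows are from RefSeq. HCT116 siCTRL replicates 1 and 2 differed least of all pairs (chi-square per degree of freedom 1.21, p = 0.033 by a chi-square test). That p is not adjusted for the number of pairs, so it cannot show that they differed by more than sampling noise. They were kept as 2 libraries. Summing them kept direction and call for 19 results on the 4 genes and changed the sign of 1. One marker of the check of the cell lines is not reported here.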

Additional observations from a re-analysis of the deposited data

Results flagged for a closer look

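For 3 of the 4 genes the change with siCARLo-1 v3 in HCT116 differed from the change with siCARLo-1 v2&4 in PC3 by limma's test of the difference itself, as it did for 54.9% of all 184 genes. The lines also differ in siRNA mark, dose and deposited scaling, and the part of each was not tested. For SKP2 the HCT116 change minus the PC3 change was 1.08 ± 0.13 (adjusted p = 3.42e-07), the fall being smaller in HCT116, and it kept its call under every alternative run. For FBXW7 the difference was -0.99 ± 0.23 (adjusted p = 0.00092), and with positive control scaling it was -0.41 (adjusted p = 0.202). For CUL1 the difference was -0.33 ± 0.12 (adjusted p = 0.0236), and it was not called without HCT116 siCTRL replicate 3 (-0.30, adjusted p = 0.0515) and turned to 0.26 with positive control scaling. For CDC34 the difference was -0.35 ± 0.15 and was not called (adjusted p = 0.0554). Leaving out 1 library gave -0.50 to -0.23, with a call without HCT116 siCARLo-1 v3 replicate 3 (-0.42, adjusted p = 0.0303), PC3 siCARLo-1 v2&4 replicate 3 (-0.41, 0.037), PC3 siCTRL replicate 3 (-0.42, 0.0356) or HCT116 siCTRL replicate 1 (-0.47, 0.0117) or 2 (-0.50, 0.0239).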

How the results depend on the processing

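Of 884 alternative values for 52 results on the 4 genes, 764 kept direction and call, 46 lost a call, 27 gained one and 47 changed sign. No alternative except the series-wide values changed a SKP2 call against siCTRL with siCARLo-1 v3, siCARLo-3, siCARLo-7 v2 or in PC3. Filters, pseudocounts, background subtraction and limma in place of edgeR changed no call or sign.

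The replicate numbers showed no clear pairing of the libraries. Same-numbered libraries of different groups correlated from -0.40 to 0.31 in HCT116 (14 of 45 pairs over 0.1) and from -0.12 to 0.10 in PC3 (1 of 3). Differently numbered libraries were not compared, so these values cannot decide whether the libraries were paired. A replicate block changed none of the 52 calls; SKP2 with siCARLo-3 became -1.35, and called genes went to 92 of 178 there and to 137 of 179 in PC3.

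With positive control sums, CDC34 became 0.27 (siCARLo-1 v3), -0.60 (siCARLo-3), 0.20 (siCARLo-5) and 0.055 (PC3). FBXW7 became -0.016 (siCARLo-3), -0.37 (siCARLo-5) and 0.48 (siCARLo-7 v2), and CUL1 -0.051 (siCARLo-7 v2) and -0.75 (PC3). Between siCARLo-3 and siCARLo-1 v3, CUL1 became -0.38 and FBXW7 -0.22. The difference between lines became 0.26 for CUL1 and 0.23 for CDC34. With their geometric mean, added after seeing the data, CUL1 became -0.35 (siCARLo-1 v3) and -0.82 (PC3), CDC34 0.39, -0.36, 0.49 and 0.33 (HCT116 siRNAs but siCARLo-7 v2, in order) and -0.017 (PC3), and FBXW7 0.19 (siCARLo-3) and -0.23 (siCARLo-5). Against siCARLo-1 v3, CUL1 became -0.26 (siCARLo-3) and -0.018 (siCARLo-4) and FBXW7 -0.13 (siCARLo-3), and the difference between lines became 0.45 for CUL1 and 0.42 for CDC34. It called 46 genes with siCARLo-1 v3 (73 with TMM), 40 with siCARLo-7 v2 (66) and 49 between siCARLo-4 and siCARLo-1 v3 (81).

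With 6 reference genes, CUL1 became -0.15 (siCARLo-1 v3) and 0.36 (PC3), FBXW7 0.51, 0.46, -0.49 and -0.10 (the same 4 siRNAs) and CDC34 -0.14 (siCARLo-3). Against siCARLo-1 v3, CUL1 became -0.25 (siCARLo-3) and -0.052 (siCARLo-4), and FBXW7 -0.055 (siCARLo-3). DESeq2 gave FBXW7 0.42 (siCARLo-1 v3) and CUL1 -0.20 (siCARLo-3) and -0.019 (siCARLo-7 v2). Fits of only 2 groups gave CUL1 -0.30 (siCARLo-1 v3) and -0.20 (siCARLo-4), and summing siCTRL libraries 1 and 2 gave CDC34 -0.043 (siCARLo-3).

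The series-wide values carry a different positive control level for each control group, which shifts every fold by construction. They gave SKP2 -0.39, 0.14, 0.16 and -0.13 (siCARLo-1 v3, siCARLo-4, siCARLo-5, siCARLo-7 v2), CUL1 -0.046, -0.40, 0.054, 0.063 and 0.79 (the HCT116 groups in order) and -1.05 (PC3), FBXW7 0.63, 0.38, -0.25 and 0.45 (siCARLo-1 v3 to siCARLo-5), and CDC34 -0.14 (siCARLo-3) and -0.24 (PC3). Between siCARLo-3 and siCARLo-1 v3, CUL1 became -0.36 and FBXW7 -0.25. FBXW7 became 0.13 between the control lines, and the differences between lines became 1.0 (CUL1), 0.33 (FBXW7) and 0.96 (CDC34). They called 144 genes with siCARLo-7 v2, 53 between siCARLo-4 and siCARLo-1 v3, and 158 for the difference between lines (101 with TMM).

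Without 1 library each, CUL1 ranged from -0.42 to -0.20 (siCARLo-1 v3), -0.29 to -0.18 (siCARLo-3), -0.010 to 0.044 (siCARLo-7 v2) and 0.056 to 0.15 (PC3). FBXW7 ranged from 0.32 to 0.46, 0.42 to 0.81, -0.57 to -0.44 and -0.014 to 0.10 (siCARLo-1 v3 to siCARLo-5), SKP2 from -0.31 to -0.24 (siCARLo-5) and CDC34 from -0.088 to 0.15 (siCARLo-3). Against siCARLo-1 v3, CUL1 ranged from -0.041 to 0.19 for siCARLo-3 and from -0.0060 to 0.22 for siCARLo-4, both lowest without siCARLo-1 v3 replicate 3, and it ranged from -0.024 to 0.063 for siCARLo-4 against siCARLo-3. The cause of these moves was not tested. edgeR on the PC3 comparison was not run, since 1 group holds scaled values. The lowest counts of the 4 genes were those of SKP2 and FBXW7 in siCARLo-3 libraries, at 40 and 49.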
